A study of Saccharomyces cerevisiae with 8 samples.

Results

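The subject here is a group of 10 plasma membrane transporter genes of budding yeast that bring amino acids and small peptides into the cell: BAP2, BAP3, AGP1, GNP1, GAP1, TAT1, TAT2, DIP5, MUP1 and PTR2. They are 10 of the 5449 Saccharomyces cerevisiae genes measured. The genes were chosen by name, as permeases linked to amino acid sensing, with the rise of BAP2 in these same arrays already known. The question was whether other permeases of that pathway share it. Because the contrast between low and high iron was known when they were picked, the members' values are a description, and no p-value is given for any of them. The lists of related genes used further on were also chosen with earlier results of these data known. Nothing is therefore read from their shares, and the adjusted p-values of their genes are descriptive.

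Cultures of strain DBY7286 were compared at 10 µM ferrous iron (low iron) and 300 µM ferrous iron (high iron), with 4 independent cultures and 1 Affymetrix array each. Every medium held 1 mM Ferrozine, which chelates ferrous iron, 1 µM copper sulfate and 25 mM MES at pH 6.1. Growth at 30 °C took about 18 h and ended in mid-log phase, at an A600 of 0.5. The labels give the strain by name with no genotype. The minimal medium held only the supplements its auxotrophies require, and the labels do not say which amino acids, if any, these were.

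Yeast reads amino acids outside the cell through a plasma membrane sensor made of Ssy1, a permease relative that does not transport, with Ptr3 and the protease Ssy5. On sensing, Ssy5 cuts the factors Stp1 and Stp2, which then enter the nucleus and, with Dal81, switch on permease genes such as BAP2, BAP3, AGP1, GNP1, TAT1, TAT2, DIP5 and PTR2. GAP1, the general amino acid permease, is instead held down by good nitrogen sources, and MUP1, the high-affinity methionine permease, is tied to the supply of methionine.

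Each value is a MAS5 signal, the array software's linear measure of brightness for 1 probe set. Every member had 1 probe set, and none of these is marked by its name as matching related sequences as well, and all 10 were above background on all 8 arrays. Background was taken from probe sets on the same arrays whose gene identifier is not among those of S. cerevisiae, treated as fission yeast probe sets. It was 5.40 to 8.06, and the brightest probe set of an array read 6597 to 7706. A gene counts as passing when its adjusted p was under 0.05 in limma fitted to log2(signal + 1) over the 5412 genes tested, and log2 changes are low minus high iron. All arrays are scaled to one average, so a change in total mRNA is not visible, and fewer cells of a kind cannot be told apart from less RNA per cell. Low-iron arrays 1 and 2 lay apart from low-iron arrays 3 and 4 on the second principal component, which held 12.1% of the variance. Results that turn on arrays 1 and 2 are also given without them. That fit keeps only arrays 3 and 4 of low iron, so a call can also end there because fewer arrays remain. The fit without arrays 3 and 4 was not run, so which pair is the unusual one was not tested.

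BAP2 rose in low iron, while BAP3, TAT1 and TAT2 fell, DIP5 rose by a smaller amount, and the other 5 members did not pass. Thus 5 of the 10 passed where 39.4% of all genes tested did, 2 in the upward direction where 16.8% did and 3 in the downward direction where 22.7% did. For 4 of the 10 the ranges of the conditions were separate, which was also so in 38.5% of all genes tested. The balance over all genes depended on the scaling, with 907 higher and 1226 lower here, 1138 and 1072 under median centring, and 1181 and 1091 under quantile normalization. The contrast was known when the genes were picked, so nothing is read from these shares. The median log2 change was -0.13 over the 10 members and -0.02 over all genes tested, and the 9 members other than BAP2 lay between -0.71 and 0.64. The count of members that passed rested on single arrays. It came to 2 without low-iron array 2 or without high-iron array 4, and to 3 without low-iron array 1, without high-iron array 3 or without low-iron arrays 1 and 2 together.

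BAP2 (YBR068C), which imports leucine, isoleucine and valine, read 61.8, 43.0, 48.7 and 52.4 on high-iron arrays 1 to 4. On low-iron arrays 1 to 4 it read 456, 821, 709 and 587. Every low-iron value was several times the highest high-iron value. The means were 51.5 ± 7.90 and 643 ± 157 (SD, n = 4), a 12.1-fold rise on the log2(signal + 1) scale and a log2 change of 3.60 ± 0.173 (SE). On the log2(signal + 1) scale this was the 8th largest rise of the 5412 genes. The lowest and highest change on leaving out 1 array were 3.47 and 3.75. The size depended on the pseudocount, at 3.26 or 9.60-fold with a pseudocount of 16 and 2.59 or 6.02-fold with a pseudocount of 64. The order of genes changed as well. ARN1, ARN2 and SIT1 rose less than BAP2 on the log2(signal + 1) scale and more with a pseudocount of 64.

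BAP3 (YDR046C), a relative of BAP2 that also carries branched-chain amino acids, went the other way. It read 24.6, 25.9, 20.4 and 24.4 in high iron and 15.3, 13.1, 16.1 and 12.3 in low iron, again without overlap. The means were 23.8 ± 2.37 and 14.2 ± 1.79 (SD, n = 4), and BAP3 fell by 0.71 ± 0.143 on the log2 scale (SE). These signals are only a few times the background. The size of the fall depended on the scale, at -0.40 with a pseudocount of 16, -0.17 with a pseudocount of 64 and -0.37 under quantile normalization, and it passed in all of these.

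**Figure D1:**
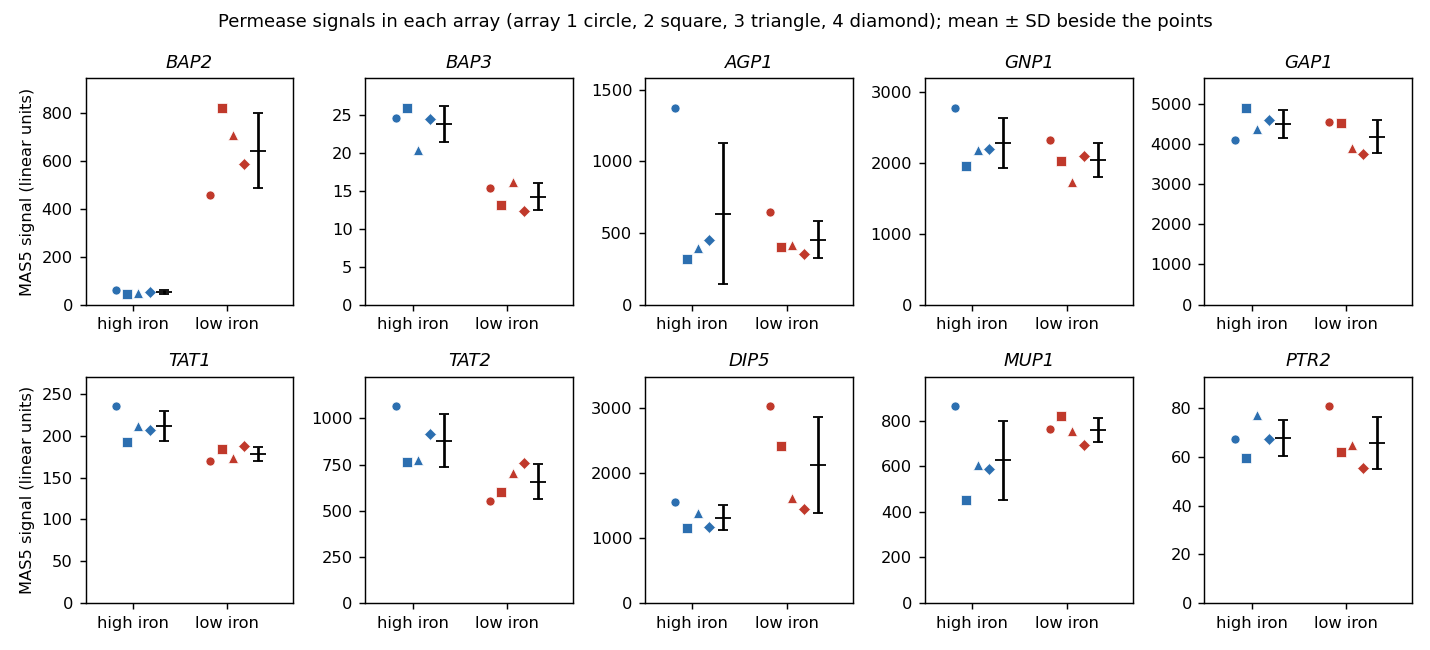
MAS5 signal (linear units, vertical axes starting at 0) of the 10 permease genes on 4 high-iron (blue) and 4 low-iron (red) arrays, with the mean ± SD of each condition in black. BAP2 stands at 43.0 to 61.8 in high iron and 456 to 821 in low iron, AGP1 has 1 high-iron array at 1374, and DIP5 has low-iron arrays 1 and 2 above all others.

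The aromatic amino acid permeases were both lower in low iron. TAT1 (YBR069C), which carries tyrosine and also valine, read 235, 192, 212 and 206 in high iron and 170, 184, 173 and 188 in low iron. TAT2 (YOL020W), the high-affinity tryptophan permease, read 1066, 764, 775 and 917 in high iron and 552, 604, 707 and 761 in low iron. The ranges of neither gene overlapped, although the highest low-iron value of each came within a few units of the lowest high-iron value.

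TAT1 fell by 0.24 ± 0.0797 on the log2 scale, from 212 ± 18.0 to 179 ± 8.38 (SD, n = 4). TAT2 fell by 0.42 ± 0.128, from 880 ± 142 to 656 ± 94.95. TAT1 and BAP2 are next to each other on chromosome II in the RefSeq gene order, with no protein-coding gene between them, and their changes had opposite signs. The TAT1 call ended under quantile normalization, under median centring and without any 1 of low-iron arrays 1, 2 or 3 or high-iron arrays 1, 3 or 4. The TAT2 call ended on leaving out array 2 of low iron or array 1 or 4 of high iron, and both calls ended without low-iron arrays 1 and 2, where TAT2 came to -0.25.

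DIP5 (YPL265W), the permease for glutamate and aspartate, was the other member that rose. It read 1554, 1148, 1380 and 1172 in high iron and 3028, 2422, 1609 and 1443 in low iron. Low-iron arrays 1 and 2 were far above the high-iron range, array 3 was just above it and array 4 lay inside it. The means were 1314 ± 191 and 2126 ± 738 (SD, n = 4), a log2 change of 0.64 ± 0.212 (SE). Without low-iron arrays 1 and 2 the change was 0.23 and did not pass, and the call also ended without low-iron array 1, low-iron array 2, or high-iron array 2, 3 or 4 alone.

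The broad-specificity permeases AGP1, GNP1 and GAP1 did not pass. AGP1 (YCL025C), which carries many neutral amino acids, read 1374, 321, 398 and 452 in high iron and 647, 402, 414 and 353 in low iron. High-iron array 1 stood apart, and the other 3 high-iron values lay in or near the low-iron range. The log2 change of -0.27 had a 95% interval from -1.13 to 0.60, and it turned to 0.19 without high-iron array 1.

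GNP1 (YDR508C), a high-affinity glutamine permease, read 2770, 1952, 2183 and 2187 in high iron and 2316, 2016, 1729 and 2091 in low iron. Its conditions overlapped, with a log2 change of -0.15 and a 95% interval from -0.40 to 0.10. GAP1 (YKR039W) read 4107, 4907, 4391 and 4616 in high iron and 4551, 4536, 3911 and 3760 in low iron, also with overlap. Its log2 change was -0.11, with a 95% interval from -0.28 to 0.06. GAP1 passed as lower at -0.18 under quantile normalization and at -0.23 without low-iron arrays 1 and 2, and signals of this height can be compressed by the upper limit of the array.

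MUP1 and PTR2 did not pass either. MUP1 (YGR055W) read 863, 449, 604 and 586 in high iron and 764, 820, 754 and 694 in low iron. Its high-iron array 1 was above all low-iron arrays, while the other 3 high-iron arrays were below them. The log2 change was 0.31 with a 95% interval from -0.04 to 0.67. It was 0.48 and passed without high-iron array 1, and was 0.17 and did not pass without high-iron array 2. PTR2 (YKR093W), the importer of di- and tripeptides, read 67.3, 59.6, 77.4 and 67.5 in high iron and 80.9, 62.2, 65.0 and 55.4 in low iron. Its values overlapped almost fully, with a log2 change of -0.05 and a 95% interval from -0.34 to 0.24. Under quantile normalization PTR2 read 0.20, and did not pass.

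**Figure D2:**
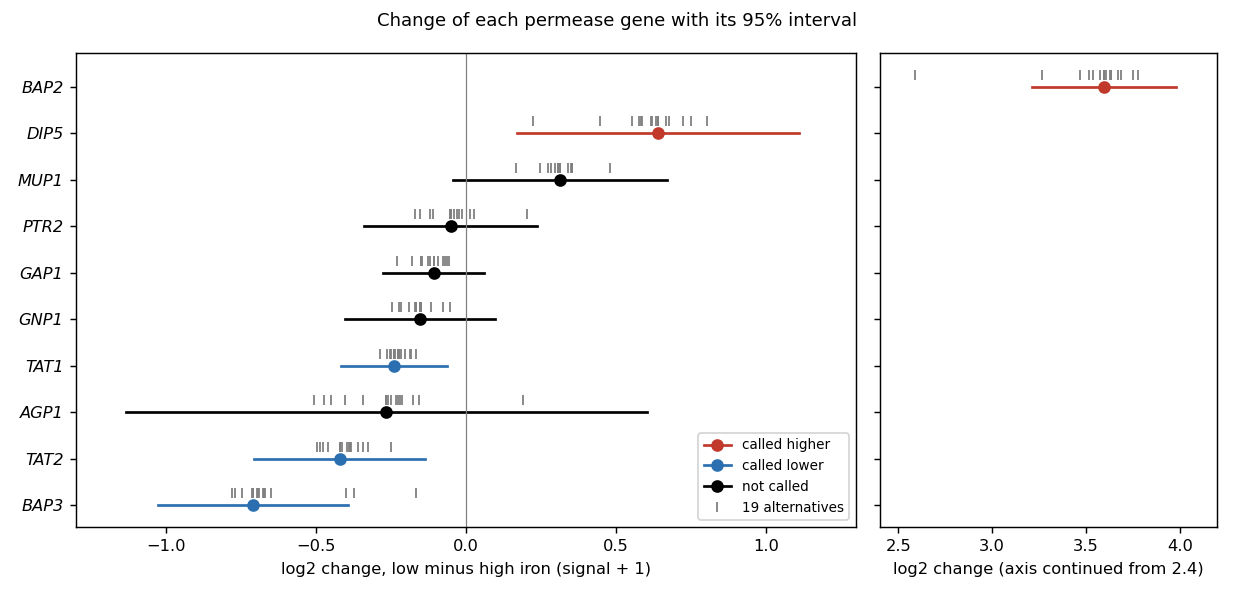
Log2 change (low minus high iron, signal + 1) of each permease gene with its 95% interval, red for genes that passed as higher, blue for lower and black for those that did not pass, with grey ticks for the 19 alternative settings. BAP2, drawn on a second axis panel, lies at 3.60, the next highest is DIP5 at 0.64, and the lowest is BAP3 at -0.71.

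Within a condition, the members moved together on some arrays. High-iron array 1 gave the highest of the 4 high-iron values for 7 of the 10 members (AGP1, BAP2, DIP5, GNP1, MUP1, TAT1 and TAT2), where 33.4% of all genes tested were highest on that array. The signal there, over the median of the other 3 high-iron arrays, was 3.45 for AGP1, 1.47 for MUP1, 1.38 for TAT2, 1.33 for DIP5, 1.27 for BAP2 and 1.27 for GNP1. These 6 ratios exceed 1.21, the 95th percentile of the ratio over all genes tested, whose median was 1.01. TAT1 was at 1.14, BAP3 at 1.01, PTR2 at 0.996 and GAP1 at 0.890. High-iron array 2 held the lowest value for 8 of the 10 members, against 29.9% of all genes tested. What sets these arrays apart was not tested, and the grouping was noticed in the data.

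Low-iron arrays differed among themselves in another way. The mean of low-iron arrays 1 and 2 over that of arrays 3 and 4 was 1.79 for DIP5 and 1.37 for AGP1, both above 1.32, the 95th percentile over all genes tested. The ratio was 0.986 for BAP2, 1.00 for BAP3 and 0.788 for TAT2. The mean BAP2 signal was thus about the same in each pair of low-iron arrays, and its log2 change without arrays 1 and 2 was 3.63. The first pair nevertheless held both extremes, with the lowest low-iron value on array 1 (456) and the highest on array 2 (821). The coefficient of variation of the members over 4 arrays ran from 4.69% for TAT1 in low iron to 77.8% for AGP1 in high iron.

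**Figure D3:**
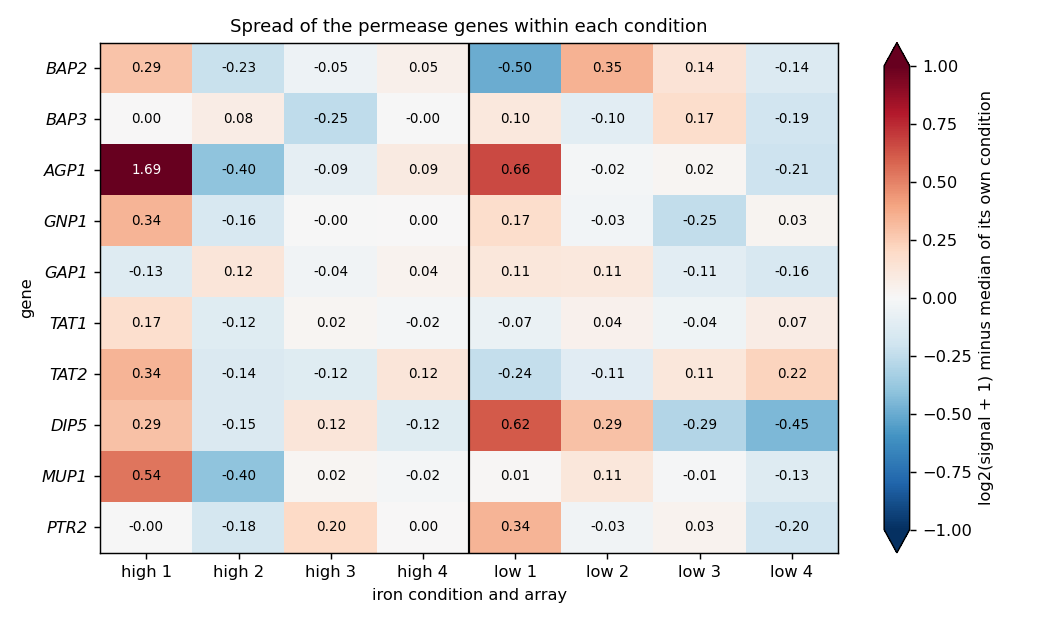
Log2(signal + 1) of each permease gene on each array minus the median of its own condition, with red above and blue below that median and the colour scale ending at 1 on the log2 scale. The column of high-iron array 1 holds the highest high-iron value of 7 genes, farthest out for AGP1, and DIP5 is high on low-iron arrays 1 and 2 and low on arrays 3 and 4.

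Of 13 genes that build or serve the amino acid sensor 3 rose and none fell, with a median log2 change of 0.14. That is 23.1% of the list, beside 39.4% of all genes tested (16.8% higher and 22.7% lower). Without low-iron arrays 1 and 2 the list had 4 higher and 1 lower. The count also depended on the scaling, with 5 higher under median centring and 6 under quantile normalization, and 0 lower in both. PTR3 (YFR029W), the sensor component that relays the signal, rose from 281 ± 17.5 to 471 ± 67.2 (SD, n = 4), and limma put the difference at 0.74 ± 0.0991 on the log2 scale (SE, adjusted p = 2.67e-04). YCK1, a casein kinase that acts on Ptr3, rose by 0.52 (adjusted p = 8.07e-05), and ASI1, part of a nuclear membrane ubiquitin ligase that removes uncut Stp1 and Stp2, rose by 0.46 (adjusted p = 0.00307). All 3 passed in each of the 19 alternatives, although ASI1 came to 0.30 without low-iron arrays 1 and 2. ASI2 and ASI3, also in the list, read -0.09 and -0.07, and YCK2 read 0.18 (limma adjusted p = 0.0553). None of these passed.

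The sensor genes SSY1 and SSY5 and the factor genes STP1, STP2 and DAL81 did not pass. SSY1 read 163 ± 3.999 in high iron and 179.7 ± 5.97 in low iron (SD, n = 4). Its ranges did not overlap, yet the change of 0.14 did not pass (limma adjusted p = 0.115), although it did so under quantile normalization at 0.21 and with no intensity trend. The changes of SSY5, STP1, STP2 and DAL81 were -0.04, 0.10, -0.07 and 0.15. These are transcript levels, and the cutting of Stp1 and Stp2 was not measured.

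Among transcription factors that act on permease genes, 2 of 14 rose and none fell (14.3% beside 39.4% of all genes tested), with a median log2 change of 0.09. Without low-iron arrays 1 and 2 the list had 1 higher and 3 lower. LEU3 (YLR451W), the regulator of branched-chain amino acid genes that also acts on BAP2, rose from 258 ± 29.1 to 349 ± 20.3 (SD, n = 4), which limma put at 0.44 ± 0.0878 on the log2 scale (SE, adjusted p = 0.00273). GCN4, the activator of amino acid synthesis genes, read 0.13 (adjusted p = 0.0286). GCN4 is near the top of the array's range, and it did not pass in 9 of 19 alternatives, with an adjusted p as high as 0.170.

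**Figure D4:**
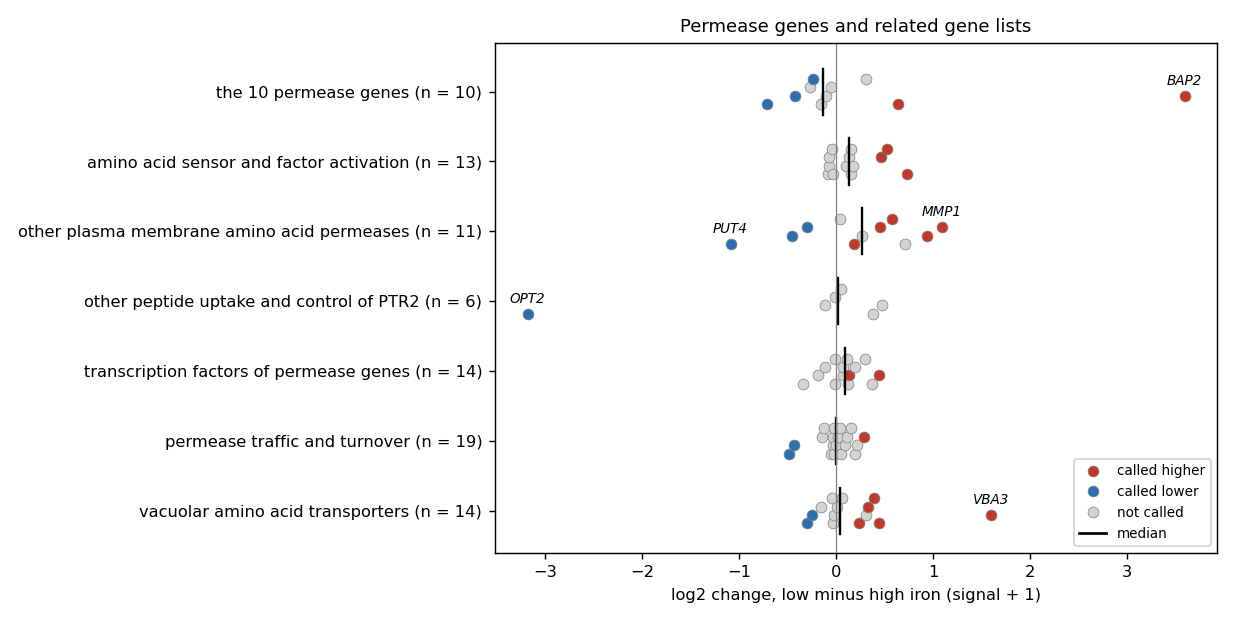
Log2 change (low minus high iron, signal + 1) of the 10 permease genes and of 6 lists of related genes, 1 point per gene, red for genes that passed as higher, blue for lower and grey for those that did not pass, with a black bar at each median. BAP2 at 3.60 and the peptide transporter gene OPT2 at -3.18 lie farthest out, and PTR3 at 0.74 and LEU3 at 0.44 are the highest of the sensor and transcription factor lists.

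Other plasma membrane amino acid permeases, none of them a member, formed a list of 11, of which 5 were higher and 3 lower (72.7% beside 39.4% of all genes tested), with a median log2 change of 0.27. As the list was chosen with earlier results of these data known, nothing is read from this share. MMP1 (YLL061W), the S-methylmethionine permease, rose from 707 ± 141 to 1492 ± 167 (SD, n = 4), and its log2 difference was 1.09 ± 0.134 in limma (SE, adjusted p = 1.49e-04). SAM3, the S-adenosylmethionine permease, rose by 0.58 from 822 ± 41.3 to 1235 ± 136 (adjusted p = 3.36e-04). ALP1, an arginine permease, rose by 0.93, or 0.34 on the log2(signal + 64) scale, HIP1, the histidine permease, by 0.45, and LYP1, the lysine permease, by 0.18. The LYP1 call ended on leaving out array 1 or array 3 of high iron. Low-iron signals of LYP1 are of the height of those of GAP1, where the array's upper limit can compress them.

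The 3 permease genes of that list that fell were PUT4, UGA4 and CAN1. PUT4 (YOR348C), the proline permease, read 109, 195, 208 and 160 in high iron and 112, 75.8, 61.2 and 64.9 in low iron, a log2 change of -1.09 (limma adjusted p = 0.00398) and -0.70 on the log2(signal + 64) scale. Low-iron array 1 and high-iron array 1 overlapped. UGA4, for gamma-aminobutyrate, fell by 0.45, and its change was -0.29 on the log2(signal + 64) scale and -0.30 under quantile normalization. CAN1, the arginine permease, fell by 0.30, from 3204 ± 36.6 to 2629 ± 444 (SD, n = 4; adjusted p = 0.0324). The CAN1 call was lost without any 1 of the high-iron arrays or of low-iron arrays 2, 3 and 4, which makes 7 of 19 alternatives (largest adjusted p 0.0820), and the change was -0.48 without low-iron arrays 1 and 2. AGP2, AGP3 and MUP3 did not pass. AGP3, a broad-specificity permease, read 0.27 and passed in 3 of 19 alternatives, at 0.49 under quantile normalization, 0.31 under median centring and 0.35 without low-iron array 4.

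Of 6 other genes for peptide uptake or for the control of PTR2, 1 fell and none rose (16.7% beside 39.4% of all genes tested), with a median log2 change of 0.02. OPT2 (YPR194C), a gene of the oligopeptide transporter family, read 134, 241, 159 and 197 in high iron. It read 13.2, 20.01, 21.5 and 21.8 in low iron, all far below the high-iron values. OPT2 fell by 3.18 ± 0.205 on the log2 scale (SE, limma adjusted p = 1.56e-06), and its change was -1.55 on the log2(signal + 64) scale. Its relative OPT1, which carries glutathione and oligopeptides, read 0.48 and did not pass (adjusted p = 0.0657), with 840 and 713 on low-iron arrays 1 and 2 and 451 and 469 on arrays 3 and 4. It passed under quantile normalization, under median centring and without low-iron array 3 or low-iron array 4, and came to 0.10 without low-iron arrays 1 and 2.

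CUP9, the repressor of PTR2, and UBR1 and RAD6, which mark Cup9 for degradation, had log2 changes of -0.11, 0.06 and -0.01, and none passed. DAL5, an allantoate permease that also takes dipeptides, read 0.39 (limma adjusted p = 0.138) and passed at 0.54 without high-iron array 2. CUP9 passed as lower, at -0.50, without low-iron arrays 1 and 2.

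The genes with profiles nearest to that of BAP2 were not permeases for amino acids. Distance was measured between log2(signal + 1) values over the 8 arrays, each gene centred on its mean. The 5 nearest of the 5411 other genes tested were FRE3 at a distance of 0.728, HMX1 at 0.759, ARN1 at 0.761, ARN2 at 0.800 and SIT1 at 0.819, against a mean of 5.23 over all others. FRE3 encodes a reductase for siderophore iron, HMX1 the haem oxygenase, and ARN1, ARN2 and SIT1 siderophore-iron transporters. Their log2 changes were 3.74, 3.66, 3.37, 3.42 and 3.50, beside 3.60 for BAP2. On the log2(signal + 64) scale they were 3.18, 3.37, 3.18, 3.24 and 3.32, all larger than the 2.59 of BAP2, so the likeness in size holds on the log2(signal + 1) scale. Low-iron means of ARN1, ARN2 and SIT1 were 4123, 4599 and 5220. As for GAP1, signals of this height can be compressed by the upper limit of the array. With 8 arrays in 2 conditions this likeness rests mainly on the size of the change between conditions. The largest rise was 0.64 among the other members (DIP5) and 1.09 among the other plasma membrane amino acid permeases listed (MMP1). None of them could therefore lie near BAP2 on this measure, and nothing about permeases is read from their absence.

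**Figure D5:**
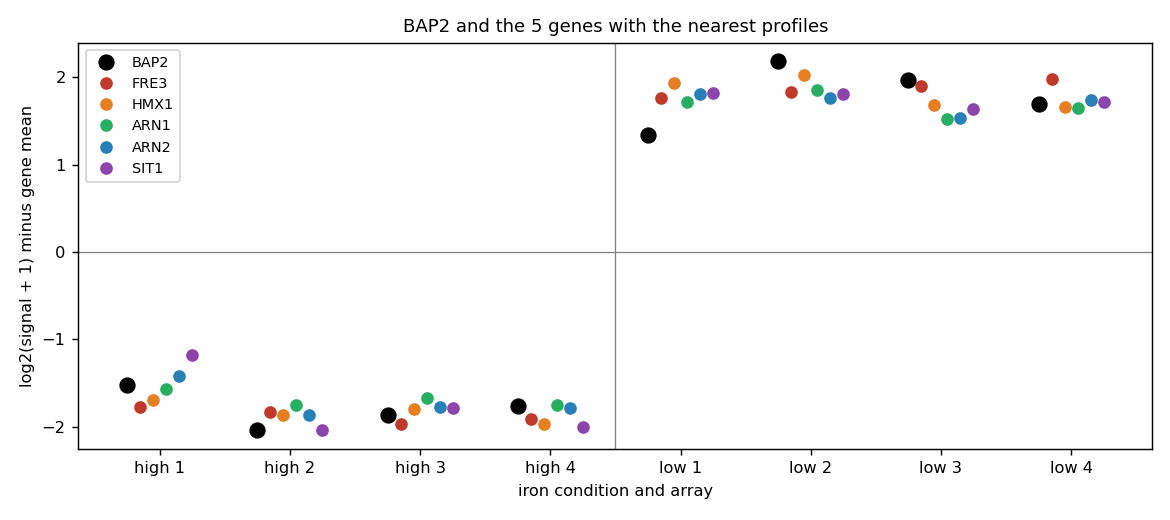
Log2(signal + 1) minus the gene's mean over the 8 arrays for BAP2 (black) and the 5 genes nearest to it, by array. All 6 genes lie below 0 on the high-iron arrays and above 0 on the low-iron arrays, and BAP2 is lowest of the 6 on low-iron array 1 and highest on low-iron array 2.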

How the data were processed

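The authors deposited MAS5 signal intensities, 1 linear value per probe set and array, per the labels and the values themselves. The submitters' processing notes name no tool but MAS5, whose settings were not stated there or in the labels. The trimmed mean, leaving out 2% at each end, was 500.2 on each array, so no further scaling was applied. Of 10928 probe sets, 5498 matched 1 S. cerevisiae gene. They were named through the platform's gene table and RefSeq (assembly R64, names and gene order only). Each gene took its brightest probe set. Background came from 1746 probe sets whose gene identifier is not among those of S. cerevisiae, treated as fission yeast probe sets. The 5412 of 5449 genes whose mean signal exceeded 5.48, the 95th percentile of these, were tested on log2(signal + 1). The test was limma 3.58.1 under R 4.3.3 (two-sided moderated test with an intensity trend and no further covariate), with Benjamini-Hochberg adjustment over all genes tested. The procedure was tested on simulated data. Plots used matplotlib 3.10.9 and Python 3.11.15. With 4 arrays per condition, precision is limited by their number, and p-values measure the spread between independent cultures. Arrays are numbered in accession order within a condition.

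The members and lists were chosen with earlier results of these data known. Named genes are the 10 members, every gene of the 6-gene list, up to 5 genes per other list with the lowest adjusted p, 11 regulators and permeases whatever their result, and the 5 genes nearest to BAP2. LYP1, UGA4, AGP2, AGP3, MUP3, AVT7, AVT4, ASI2, ASI3 and YCK2 were named after their values were seen. ASI2, ASI3 and YCK2 were not in the search for outlying values described below. The 19 alternatives were quantile normalization, median centring, pseudocounts of 16 and 64, averaging probe sets of a gene, array weights, dropping the intensity trend, raising dim signals to background, a stricter filter (9.21, the 99th percentile), no filter, leaving out each array, and leaving out low-iron arrays 1 and 2.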

Additional observations from a re-analysis of the deposited data

Results flagged for a closer look

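Within each condition of 4 arrays, 53 of the named genes were searched for a value far from the other 3, and 2 of 106 sets held one. Chance alone flags about 1 in 20, a larger share than was found, so neither value is read as beyond chance. AGP1 read 1374 on high-iron array 1, against 321 to 452 on the other high-iron arrays. CAN1 read 3150 on high-iron array 1, the lowest of the 4, against 3219 to 3229 on the others, a small gap set against a very narrow range.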

How the results depend on the processing

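The number of genes that passed stayed within 1.5 times 2133 in all 19 alternatives (1717 to 2306), and the number of pathway genes that passed stayed within 1.5 times 24 (20 to 32). The split of the latter, 16 higher and 8 lower, became 15 and 17 without low-iron arrays 1 and 2, and 23 and 8 with median centring or 23 and 7 with quantile normalization. The number of members that passed, 5 in the main analysis, ran from 2 to 5 on leaving out each array and was 3 without low-iron arrays 1 and 2. BAP2 and BAP3 passed in all 19, DIP5 in 13, TAT2 in 15 and TAT1 in 10. Signs turned only for genes that had not passed. AGP1 came to 0.19 without high-iron array 1. Leaving out 1 array gave it -0.51 to 0.19 and PTR2 -0.15 to 0.026, and PTR2 came to 0.20 under quantile normalization. Under quantile normalization SSY5 came to 0.019 and RAD6 to 0.0247, and under median centring RAD6 came to 0.023 and SHR3 to 0.020. Without low-iron arrays 1 and 2, STP2 came to 0.0065, DAL81 to -0.031, UBR1 to -0.040, RAD6 to 0.026 and AGP2 to -0.37, the last past the threshold (limma adjusted p = 0.00835). Leaving out 1 array gave -0.30 to 0.050 for CUP9, -0.039 to 0.0059 for RAD6, -0.050 to 0.014 for SHR3 and -0.15 to 0.20 for AGP2, which was -0.026 with array weights. The cause of these turns was not tested. No paired analysis was possible because the labels give the cultures no shared replicate numbers. Members at a few times the background, such as BAP3, have changes whose size depends on the pseudocount.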

Other observations

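Of 14 vacuolar amino acid transporter genes 5 were higher and 2 lower (50% beside 39.4% of all genes tested, a share near the background), with a median log2 change of 0.04. ATG22, which releases amino acids from the vacuole, read 497 ± 10.1 in high iron and 653.5 ± 28.1 in low iron (SD, n = 4) and rose by 0.39 on the log2 scale (limma adjusted p = 3.73e-04). RTC2, a vacuolar transporter of basic amino acids, rose by 0.44, whereas its relative YPQ1 fell by 0.25, and VBA1 rose by 0.33. AVT7 rose by 0.24 and AVT4 fell by 0.30, with calls that ended without low-iron arrays 1 and 2 (adjusted p = 0.0545) and without high-iron array 4 (adjusted p = 0.0528). VBA3 read 7.58, 9.87, 7.37 and 8.50 in high iron, close to background, and 20.7, 50.4, 27.7 and 18.6 in low iron. The name of its only probe set marks it as matching related sequences as well, so these values may not be of VBA3 alone. The log2 change of that probe set, 1.60 (limma adjusted p = 0.00124), came to 0.36 on the log2(signal + 64) scale.

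Of 19 genes for permease traffic and turnover 1 rose and 2 fell (15.8% beside 39.4% of all genes tested), with a median log2 change of -0.0028. Without low-iron arrays 1 and 2 the list had 1 higher and 5 lower. ROG3 and CSR2, adaptors that bring the ubiquitin ligase Rsp5 to its targets, fell by 0.43 and 0.49 (limma adjusted p = 0.00141 and 0.00993), and the CSR2 call ended under quantile normalization. CSR2 came to -0.29 on the log2(signal + 64) scale. DOA4, a ubiquitin hydrolase, rose by 0.29, which did not pass in 9 of the 19 alternatives and came to 0.18 without low-iron arrays 1 and 2. SHR3, needed for amino acid permeases to leave the endoplasmic reticulum, read 4075 ± 160.5 in high iron and 4031 ± 236 in low iron (SD, n = 4), with a log2 difference of -0.017. Signals of this height, too, can be compressed by the upper limit of the array.

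Several transporter genes that did not pass separated low-iron arrays 1 and 2 from arrays 3 and 4, as DIP5 did. MUP3, a low-affinity methionine permease, read 915 and 468 on the first pair and 271 and 260 on the second, with 200 to 333 in high iron. AGP2 read 405 and 317 against 195 and 209, with 237 to 286 in high iron, so that one pair lay above the high-iron range and the other below it.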
